A study of Canis lupus familiaris with 2 samples.

Results

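Zinc finger genes whose symbol begins with ZNF were examined in CLBL-1, a cell line of canine diffuse large B-cell lymphoma, and in CLBL-1 8.0, its doxorubicin-resistant form. Every row of the authors' comparison table whose gene symbol starts with ZNF was taken, which gave 31 of 1729 rows. All 31 are described in the table as a zinc finger protein. CLBL-1 was labelled as lymph node cells with no chemoresistance and was grown in RPMI medium with 10% fetal bovine serum. CLBL-1 8.0 was kept in the same medium with 8 µM doxorubicin hydrochloride, an anthracycline that intercalates into DNA and poisons topoisomerase II. Each line is 1 sample, with RNA from separate dishes, and each gene has 1 abundance value per line. The differences below therefore have no replicate check and no test. The resistant line is a single derivative of its parent, so resistance, drug exposure and drift between cultures cannot be told apart. Of 14 B cell markers only CD37 had a row, at 26.6 in CLBL-1 8.0 and 50.4 in CLBL-1, so the labelled cell type could not be checked with MS4A1, CD79A or PAX5. Of 8 T and NK cell markers none had a row, and of 6 myeloid markers FCER1G had one, at 14.0 and 7.74 in the same order; their part in the results was not tested.

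Most proteins with a ZNF symbol carry tandem C2H2 zinc fingers, small folds held by a zinc ion, and most of them bind DNA through these fingers. The members were taken by symbol, and their fingers were not checked. The largest subgroup has a KRAB domain at its start, which recruits the corepressor TRIM28 and the methyltransferase SETDB1 to lay down heterochromatin, often over transposable elements. Others carry a SCAN domain, through which they pair with one another. Many of these genes lie in tandem clusters, and in mammals they are typically transcribed at low levels. Roles given below are known from the human proteins unless another species is named.

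Of the 31 ZNF rows, 25 (80.6%) had the higher value in CLBL-1 8.0 and 6 had it in CLBL-1, against 65.2% higher among all 1729 rows. The difference was measured as log2((resistant + 1)/(parental + 1)), a scale that understates differences of low values. On it the members had a median of 0.83, and their lower and upper quartiles were 0.68 and 0.91. All rows had a median of 0.73. No row lay between -0.555 and 0.556, so these signed medians also reflect the share of higher rows. Without regard to sign, the median difference was 0.85 for the members and 0.90 for all rows. With 5 added in place of 1 the order of the signed medians turned, at 0.54 for the members and 0.58 for all rows. Because 11 of the members lie on chromosome 6, where 94.3% of all rows were higher, the count was also taken outside that chromosome. There, 14 of 20 ZNF rows (70.0%) were higher, against 60.8% of all rows, and the medians were 0.70 for the ZNF rows and 0.70 for all rows. Outside chromosome 6 the share was thus nearer to the background than over all members.

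The differences were small. Leaving out ZNF74, which was listed at 0 in the parental line, the other 24 higher members were between 1.65-fold and 2.77-fold higher. The 6 lower members were between 1.64-fold and 2.85-fold lower. The smallest fold in the whole table was 1.59, so many members lay close to the limit at which rows appear in it: 19 of 31 members (61.3%) differed less than 2-fold, as did 53.6% of all rows. At least 2-fold on the log2(value + 1) scale, 7 members were higher, against 24.1% of all rows, and 2 were lower, against 14.4% of all rows. Only ZNF74 passed a 4-fold difference on this scale (1 of 31, or 3.23%), against 7.11% of all rows.

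**Figure D1:**
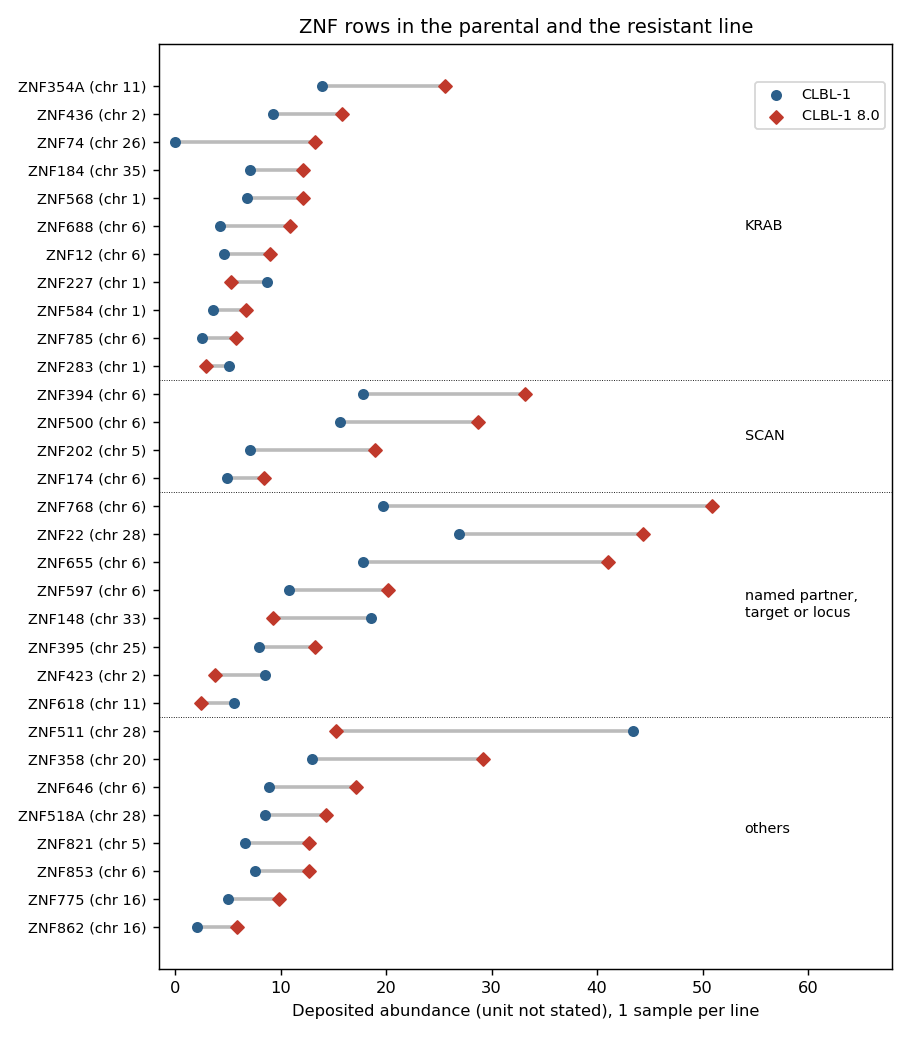
Abundance of each of the 31 ZNF rows in CLBL-1 (circles) and CLBL-1 8.0 (diamonds), 1 sample per line, on a linear axis in the deposited unit, which is not stated; rows are grouped by role and ordered by their higher value within a group. The diamond lies to the right of the circle in 25 rows and to the left in 6, and ZNF74 starts at 0 in CLBL-1.

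The group listed as KRAB genes was the largest, with 11 members, of which 9 were higher and 2 were lower (median log2 difference 0.75). Genes with both domains are given under SCAN. Domains were not checked in dog sequences, so members of the other groups may also carry a KRAB domain. ZNF74, a KRAB gene of the region deleted in human DiGeorge syndrome (gene ID 100684862, chromosome 26, 30170410 to 30194748, plus strand), was at 13.3 in CLBL-1 8.0 and listed at 0 in CLBL-1. No fold was computed for it. Its log2 difference of 3.84 ranked 10th of 1729 rows, but it rests on the treatment of the 0, at 1.87 if 5 is added to each value in place of 1, and at 7.07 if 0.1 is added. The listed rows on either side of it, TXNRD2 and KLHL22, had log2 differences of 0.85 and 0.63, so its listed neighbours did not share its large contrast. An exact 0 in this kind of file can be a failed estimate, and 3 rows of the table were listed at 0 in the parental line.

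The other higher KRAB genes had values in both lines. ZNF688 (gene ID 489908) was at 10.9 in CLBL-1 8.0 and 4.27 in CLBL-1, 2.55-fold higher. ZNF785 (gene ID 607501) was at 5.79 and 2.53, 2.28-fold higher. These were the largest differences of this group after ZNF74, and both genes lie side by side on chromosome 6. ZNF12 (gene ID 100683482) was at 9.05 and 4.65. ZNF354A (gene ID 100688159), whose rat counterpart Kid-1 is known as a repressor regulated in kidney injury, had the highest level of this group, at 25.5 and 14.0. ZNF568 (gene ID 484559), whose mouse counterpart silences a placental transcript of Igf2, was at 12.1 and 6.79. These 3 genes differed less than 2-fold. Of the remaining higher KRAB genes, ZNF584 was at 6.74 and 3.59, ZNF436 at 15.8 and 9.31, and ZNF184 at 12.2 and 7.08. They had log2 differences from 0.70 to 0.75, close to the median of all rows.

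The 2 lower genes of the KRAB group are neighbours. ZNF227 (gene ID 484460, chromosome 1, 111094287 to 111108036, minus strand) was at 5.32 in CLBL-1 8.0 and 8.71 in CLBL-1, 1.64-fold lower. ZNF283 (gene ID 613011, 111300327 to 111321654, same strand) was at 2.92 and 5.15, 1.76-fold lower. They lie 192 kb apart with no listed row between them. ETHE1, the next listed row beyond ZNF283, was also lower (log2 difference -0.95), and PVR, the next beyond ZNF227, was higher (0.97). By the order of genes in the reference table, 5 other protein-coding genes start between them, and their values were not analysed here. At 5.15 in its higher line, ZNF283 had the lowest level of all members, just above the lowest such value in the table, 5.01.

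All 4 SCAN members were higher in the resistant line, from 1.72-fold to 2.67-fold. ZNF202, a SCAN and KRAB repressor of lipid transport genes (gene ID 489351, chromosome 5, 10705862 to 10722372, plus strand), was at 19.0 and 7.10, the largest fold of this group. ZNF394 (gene ID 479741) was at 33.2 in CLBL-1 8.0 and 17.8 in CLBL-1. ZNF500 (gene ID 490023) was at 28.7 and 15.6. ZNF174 (gene ID 490035), a SCAN protein known to repress growth factor promoters, was at 8.45 and 4.91. Of the 4, all but ZNF202 lie on chromosome 6, so ZNF202 is the one SCAN member outside the raised chromosome. SCAN genes with other names went both ways: ZSCAN25, ZSCAN29, ZKSCAN2 and MZF1 were higher, at 18.6 against 9.55, 12.9 against 7.54, 8.11 against 4.68 and 12.1 against 6.51, and LOC608197, described as a KRAB and SCAN protein, was lower, at 9.74 against 16.0.

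A further 8 members are known for a particular partner, target or locus, and here 5 were higher and 3 were lower. ZNF768, which binds a mammalian repeat element and acts downstream of RAS in proliferation (gene ID 489906, chromosome 6, 17596200 to 17599787, plus strand), had the highest value of all members, at 50.9 in CLBL-1 8.0 and 19.7 in CLBL-1, 2.58-fold higher. ZNF655, also called VIK for its binding to the blood cell exchange factor VAV1 (gene ID 489855, chromosome 6, 9978125 to 9994715, minus strand), was at 41.1 and 17.9, 2.30-fold higher. With ZNF22, these were the highest values of any member in CLBL-1 8.0. ZNF22, known in mouse as the tooth-development gene Krox-26 (gene ID 100684294, chromosome 28, 2442533 to 2446900, minus strand), was at 44.3 and 26.9. ZNF597 (gene ID 100683002), an imprinted gene in human, was at 20.2 and 10.8. ZNF395 (gene ID 486094, chromosome 25, 29205843 to 29221859, plus strand), a papillomavirus-binding factor, was at 13.3 and 7.95. These 3 were higher by less than 2-fold.

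The 3 lower members of this group were each more than 2-fold lower. ZNF423, a cofactor of SMAD proteins that also binds the B cell factor EBF1 and inhibits it (gene ID 487291, chromosome 2, 65512342 to 65778410, plus strand), was at 3.75 in CLBL-1 8.0 and 8.57 in CLBL-1, 2.28-fold lower. ZNF148, also called ZBP-89, a GC-box binding factor that interacts with p53 (gene ID 488017, chromosome 33, 28229270 to 28348032, minus strand), was at 9.24 and 18.5, 2.01-fold lower. ZNF618, a reader of hydroxymethylated DNA (gene ID 474809, chromosome 11, 68194933 to 68330649, plus strand), was at 2.43 and 5.62, 2.31-fold lower. All 3 have long genomic spans, of 266, 119 and 136 kb, against a median of 16.6 kb over the members. Long spans were not confined to lower members, as the higher ZNF518A spans 109 kb. The lower ZNF227, ZNF283 and ZNF511 span 13.75, 21.3 and 10.7 kb. ZNF423 and ZNF618 were also among the members of low level, below 10 in both lines, where counting error is relatively largest.

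Of the last 8 members, whose function is less well described, 7 were higher and 1 was lower. ZNF511 (gene ID 608198, chromosome 28, 40881819 to 40892518, plus strand) was the lower one, at 15.2 in CLBL-1 8.0 and 43.4 in CLBL-1. Its 2.85-fold difference was the largest decrease of any member, and it was the member with the highest parental value. ZNF862 (gene ID 610840) was at 5.83 and 2.11, 2.77-fold higher, the largest fold among higher members with a value above 0 in both lines. ZNF775 (gene ID 100686819) was at 9.84 and 5.02. These 2 genes lie 52.4 kb apart on chromosome 16, at 14604106 to 14641952 and 14694305 to 14711773, with no listed row between them. ZNF358 (gene ID 111089965, chromosome 20, 52311253 to 52316235, plus strand) was at 29.2 and 13.0, 2.25-fold higher. ZNF646 was at 17.2 and 8.87. ZNF821 (gene ID 489726, chromosome 5, 77629255 to 77646278, minus strand) was at 12.7 and 6.59. ZNF518A (gene ID 100687589, chromosome 28, 9572436 to 9681510) was at 14.3 and 8.53, and ZNF853 was at 12.7 and 7.62. These last 4 were higher by less than 2-fold.

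By position, the members fell on 12 chromosomes, and chromosome 6 held 11 of them. All 11 were higher in the resistant line, from 1.66-fold to 2.58-fold, with a median log2 difference of 0.86. The other 216 rows of that chromosome had 203 higher and a median of 0.88, so the ZNF rows there did not stand apart from their chromosome. They fell into several groups: ZNF655 and ZNF394 lay 36.8 kb apart, ZNF853 (gene ID 100855518, 11952447 to 11959500) and ZNF12 (12008747 to 12049890) 49.2 kb apart, and ZNF597 (37793406 to 37798568) and ZNF174 (37819278 to 37828985) 20.7 kb apart. ZNF394 spans 10031530 to 10047082, ZNF500 36646310 to 36663266 and ZNF646 (gene ID 489922) 17148923 to 17157563. ATP5J2, the listed row after ZNF394, was lower (log2 difference -1.71), and the listed neighbours of the other chromosome 6 members were all higher.

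**Figure D2:**
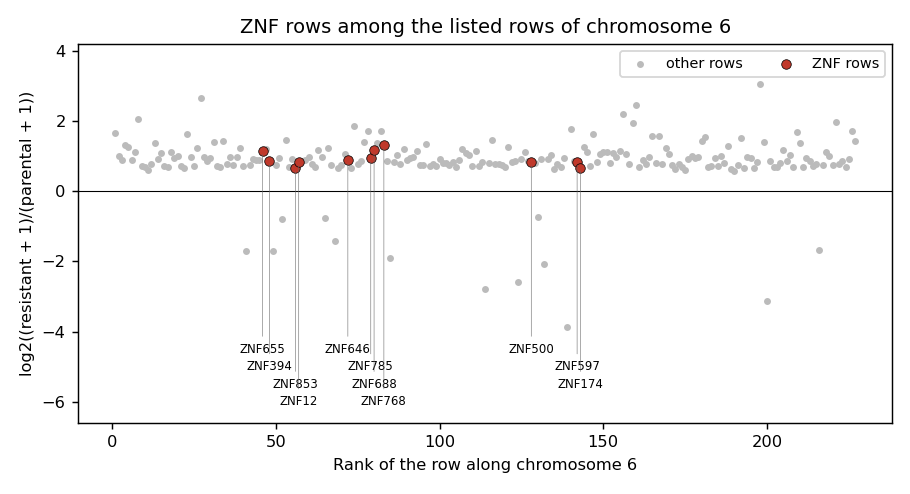
Log2((resistant + 1)/(parental + 1)) of the 227 listed rows of chromosome 6 against their rank along the chromosome, with the 11 ZNF rows named. The ZNF rows lie between 0.67 and 1.33, within the band formed by most other rows of the chromosome.

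The tightest group was a run of 6 consecutive listed rows over 60.9 kb of chromosome 6, delimited after the values were seen. It holds ZNF785 (17565330 to 17569490), ZNF688 (17576983 to 17580040) and ZNF768 (17596200 to 17599787), all on the plus strand. Between and beside them lie LOC489911, described as ZNF688-like, at 37.2 in CLBL-1 8.0 and 10.6 in CLBL-1, and LOC100683431, described as ZNF764, at 20.1 and 7.06. The sixth row, LOC102154296, is uncharacterized and was at 14.1 and 3.63. All 6 rows were higher, with log2 differences from 0.94 to 1.72 and a median of 1.36, above the median of 0.88 for the other rows of the chromosome. ZNF688 and its listed ZNF688-like copy may share reads, and LOC102154296 overlaps LOC100683431 on the opposite strand, so the split of reads among these rows is uncertain.

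On other chromosomes, some members differed in direction from most rows of their chromosome. On chromosome 5, 54 of 151 other rows (35.8%) were higher, and both ZNF202 and ZNF821 were higher. ZNF202 lay within a run of 32 consecutive higher rows, from SIAE to SIK2, and ZNF821 was higher together with the next row, IST1. On chromosome 33, 13 of 15 other rows were higher, whereas ZNF148 was lower. The 2 rows directly before it, FSTL1 (-0.76) and HCLS1 (-3.73), were the other lower rows of that chromosome. On chromosome 28, 18 of 22 other rows were higher, whereas ZNF511, the last listed row of that chromosome, was lower. Its only listed neighbour, PTPRE, 3.98 Mb away, had a log2 difference of 0.99. On chromosome 11, ZNF618 was lower between SNX30 and TNFSF8, which had log2 differences of 0.92 and 0.88, while ZNF354A (2897998 to 2918304) was higher like its neighbour ZFP2 (0.67). ZNF423 on chromosome 2 lay next to ADCY7, which was lower (-1.98), and ZNF436 (gene ID 100684593, 76049169 to 76058428) on the same chromosome was higher. On chromosome 1, where 33 of 66 other rows were higher, the 4 members were split evenly, with ZNF584 (gene ID 100684391, 99505557 to 99527914) and ZNF568 (115896324 to 115975907) higher. ZNF184 (gene ID 106558233, chromosome 35, 24774918 to 24797496) was higher on a chromosome where 7 of 14 other rows were.

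Counted over nearest listed rows, 45 of the 50 neighbours of higher members were higher too, against 65.2% of all rows. Of the 11 neighbours of lower members, 5 were lower, against 602 of all 1729 rows. For the chromosome 6 members, 21 of 22 neighbours were higher, on a chromosome with 94.3% of rows higher. For the higher members elsewhere, 24 of 28 neighbours were higher, against 60.8% of all rows there. These counts include members that neighbour each other. The background given is that of all rows, not that of the neighbours of any higher or lower row, which was not counted. Directions ran in stretches, such as the 32 consecutive higher rows that hold ZNF202, so neighbours may share a direction for any row. For 21 of the 31 members every nearest listed row shared their direction, a count that was not made over all rows. For 2 members, ZNF618 and ZNF511, none did.

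**Figure D3:**
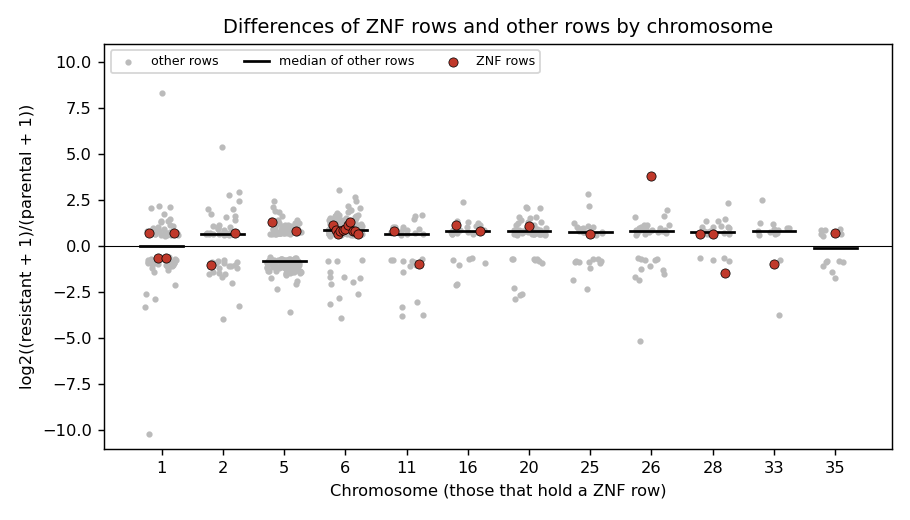
Log2((resistant + 1)/(parental + 1)) of the ZNF rows (red) and of the other listed rows (grey) on the 12 chromosomes that hold a ZNF row, with the median of the other rows as a bar. On chromosome 6 the 11 ZNF rows lie around the bar, and on chromosome 5 both lie above it. All ZNF rows of chromosomes 28 and 33 lie below the bar. Across the other chromosomes ZNF rows lie on both sides of it.

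By level, the ZNF rows were in the lower part of the table, in which no row was below 5.01 in its higher line. Levels of different genes are set side by side here on the premise that the values are per transcript length, as the outputs of StringTie are. In the line with the higher value, the members had a median of 13.3 and ranged from 5.15 to 50.9, whereas all rows had a median of 21.7 and reached 6038. Only 8 of the 31 members (25.8%) lay above the median of all rows, and 21 members (67.7%) reached 10 in 1 of the lines, against 75.7% of all rows. Among the 1217 other rows within the level range of the members, 67.1% were higher in the resistant line, close to 65.2% over the whole table. Outside chromosome 6, the shares were 64.2% of 1094 other rows in this level range and 70.0% of the 20 members. The members at both ends of the level range included lower rows: ZNF511 was the third highest of the members by its higher value and ZNF283 the lowest.

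**Figure D4:**
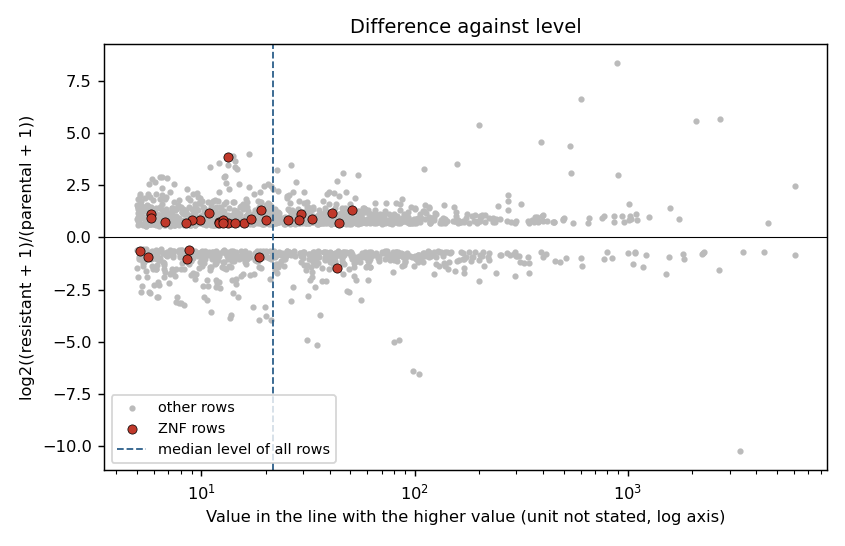
Log2((resistant + 1)/(parental + 1)) against the value in the line where it was higher (log axis), for the 31 ZNF rows (red) and the other listed rows (grey), with the median level of all rows as a dashed line. Most ZNF rows lie to the left of the line and close to the inner edge of the cloud, apart from ZNF74 at 3.84.

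The ZNF rows were a small part of the family. The reference table of dog genes names 265 protein-coding genes with ZNF and a number, and 29 of them (10.9%) had a row, against 7.04% of all its protein-coding genes. On chromosome 6, 10 of 24 such genes had a row (41.7%), against 21.6% of all protein-coding genes of that chromosome. Chromosome 6 thus holds 10 of the 29, and the share outside it was not counted. On chromosome 1, which holds the most ZNF genes in the reference table, 3 of 71 had a row (4.23%), against 4.64% of all protein-coding genes there. The others were not analysed here.

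Some members overlap other genes, with which they may share reads; this was not tested. In the comparison table, ZNF655 overlapped FAM200A by 126 bases on the opposite strand, and FAM200A was at 8.11 in CLBL-1 8.0 and 2.93 in CLBL-1. By the reference table, 8 members overlap another protein-coding gene, among them ZNF568 with ZNF829, ZNF775 with REPIN1, ZNF358 with PNPLA6, ZNF646 with ZNF668, and ZNF184 with ZNF391. How the authors handled strand is not stated. Without these 8 members, 18 of 23 (78.3%) were higher.

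Beyond the ZNF symbols, zinc finger genes of other names were counted as well. Of 25 rows taken by the start of their symbols, 22 (88.0%) were higher, against 65.2% of all rows, and 3 of the 25 lie on chromosome 6. Their median log2 difference of 0.73 was that of all rows (0.73). SP100, a nuclear body protein, and ZBTB8OS entered through their symbols and are no zinc finger genes of these families, and without them 21 of 23 were higher. The 4 largest differences were those of ZFAND2A, an AN1-type protein induced by arsenite, at 22.6 in CLBL-1 8.0 and 61.7 in CLBL-1, ZBTB8OS at 26.2 and 11.1, the palmitoyltransferase ZDHHC8 at 56.5 and 24.6, and ZFP41 at 7.29 and 2.80. Among them, 14 rows belong to C2H2 families (ZFP, ZSCAN, ZKSCAN, ZBTB, GLI, KLF and GTF3A), of which 13 were higher. The exception was GTF3A, the RNA polymerase III factor TFIIIA, in whose Xenopus form zinc fingers were first described, at 142 and 252.

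Little of the machinery through which KRAB proteins act had a row, as was so for protein-coding genes at large, of which 7.04% had one. Of 24 genes of KRAB cofactors and heterochromatin, among them TRIM28, SETDB1 and the HP1 genes CBX1, CBX3 and CBX5, only UHRF1 had a row. UHRF1, which recruits the maintenance DNA methyltransferase, was at 72.0 in CLBL-1 8.0 and 117 in CLBL-1. The table thus gives no value of TRIM28 or SETDB1 to set beside the KRAB genes.

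In the authors' deposited table of ontology terms, 29 of the 31 members appeared in 1 or more of 7 terms, and none in a KEGG pathway. In the authors' deposited table, metal ion binding (p = 0.0744) held 28 members among its 87 genes, and 22 of these 28 were higher, against 63 of all 87. The term transcription, DNA-templated (p = 0.0793 in the authors' deposited table) held 4 members, ZNF174, ZNF518A, ZNF202 and ZNF394, all higher, against 21 of all its 33 genes. In the nucleoplasm term (p = 0.0148 in the authors' deposited table), 7 of 8 members were higher, against 78 of all its 131 genes. In the intracellular term (p = 0.0141 in the authors' deposited table), 7 of 9 members were higher, against 54 of all 77. The terms Golgi apparatus, centrosome and mitochondrion of the authors' deposited table held 1 member each, the lower ZNF148 and the higher ZNF12 and ZNF202.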

How the data were processed

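Poly-A-selected RNA of CLBL-1 and CLBL-1 8.0 was sequenced as 1 sample per line, per the labels' protocols. The submitters' processing notes name HISAT2, StringTie and the CanFam3.1 build, with no versions, settings or annotation. The deposited abundance values are a signal per gene and line with no stated unit (FPKM or TPM), so depth is unknown and no counting interval could be given. The deposited log2 fold changes are the authors', per the file headers, and equal log2 of resistant over parental to within 1.6e-14 in the 1720 rows with a finite value. The authors' p-value of each term was read as deposited, as was the count of genes per term in the deposited tables.

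Rows whose symbol starts with ZNF were taken, and all 31 are named. Differences are log2((resistant + 1)/(parental + 1)), a pseudocount of 1, with no test, because each group is 1 sample. No filter on low values was added to the deposited rows. Among these, the smallest higher value was 5.01, the smallest difference 2.00 and the smallest fold 1.59. Members were described beside all 1729 rows. Coordinates are as deposited. A reference table of dog genes (UU_Cfam_GSD_1.0) served for names, gene order and overlaps only. In it, 30 of 31 gene IDs were found, 29 with the same symbol. The ID of ZNF688 was not found, and that of ZNF568 had the symbol LOC484559. Alternatives covered scaling, centring, pseudocount, level, overlap and chromosome. The members, gene lists and alternatives were chosen with earlier results of these data known, and the grouping by role was made after the values were seen. In the list of other zinc finger symbols, the 4 rows with the largest absolute difference were named, and further genes, here and in the lists by description and by C2H2 family, after their values were seen. Counts and medians were tested on simulated data. Python 3.11.15 and pandas 2.3.3 were used.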

Additional observations from a re-analysis of the deposited data

How the results depend on the processing

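No paired analysis was possible because each group is 1 sample, and for the same reason no replicate could be left out. The share of higher ZNF rows was 80.6% and stayed between 70.0% and 87.5% under all alternatives except centring on the median of all rows. The 70.0% was without chromosome 6, which holds the most ZNF rows, against 60.8% of all rows outside it. The 87.5% was at a mean of at least 10 over both lines (16 rows), against 65.2% of all rows at that limit. Centring gave 58.1%, and by its construction it splits all rows evenly between higher and lower. Centring lowers every difference by 0.73, so signs turned for the 7 members with positive differences below it: ZNF436 (-0.025), ZNF395 (-0.058), ZNF22 (-0.033), ZNF518A (-0.046), ZNF184 (-0.028), ZNF853 (-0.065) and ZNF174 (-0.054). Upper-quartile scaling (parental values times 1.25), either pseudocount and the level limit could turn no sign, so they did not test direction. The smallest fold of any row was 1.59, a constant added to both values keeps their order, and the level limit only drops rows. The median log2 difference of 0.83 became 0.52 with upper-quartile scaling (0.43 over all rows), 0.095 when centred, 0.54 with a pseudocount of 5 and 0.87 with one of 0.1. With a pseudocount of 5 the median over all rows was 0.58, so the members' median was then below it, not above it as with 1 (0.73) or 0.1 (0.77). It was 0.70 without chromosome 6, 0.79 without the row listed at 0, 0.79 without the row that overlaps another row and 0.75 without members that overlap another gene in the reference table. Leaving out another chromosome in turn gave 0.84 without chromosome 1, 0.75 without 5 or 16, 0.79 without 20 or 26 and 0.83 without 28. The leave-out of each chromosome and the reference overlap were added after seeing the data. Low levels and unknown depth limit the precision of members below 10.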

Other observations

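Zinc finger rows without a ZNF symbol include unnamed paralogues. Of 4 LOC rows described as a zinc finger protein, 3 were higher in the resistant line. LOC100684414, described as zinc finger protein 780A-like on chromosome 1, was at 5.15 in CLBL-1 8.0 and 0.439 in CLBL-1, a larger contrast than that of any ZNF member above 0 in both lines. LOC608197, described as the KRAB and SCAN protein ZKSCAN7 on chromosome 23, was the lower one, at 9.74 and 16.0. Over all 38 rows outside the ZNF symbols whose description holds the words zinc finger, 35 (92.1%) were higher, against 65.2% of all rows, with a median log2 difference of 0.78. Of the 38, 9 lie on chromosome 6, and outside it 27 of 29 were higher, against 60.8% of all rows there. The largest difference among the 38 was that of DBF4, a kinase regulator on chromosome 14, at 2693 in CLBL-1 8.0 and 52.1 in CLBL-1. The listed rows on either side of DBF4, RUNDC3B and SRI, were raised alike, with log2 differences of 6.61 and 5.55. Next among the 38 came LOC100684414, LOC489911 and HELZ2, a helicase, at 33.3 and 11.4. The 3 lower rows of the 38 were LOC608197, ZFAND2A and RCHY1, a ubiquitin ligase of p53, which was at 18.5 and 35.4. MAZ, a GC-box factor on chromosome 6, was at 270.1 and 157, and MZF1, a SCAN factor of myeloid cells, at 12.1 and 6.51. These rows were gathered by description after the values were seen.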
